A study of Homo sapiens with 8 samples.

Results

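The clustered protocadherins are cell-surface cadherins encoded side by side on the long arm of chromosome 5, in an alpha, a beta and a gamma cluster. All rows of the deposited table whose symbol was PCDHA, PCDHAC, PCDHB, PCDHGA, PCDHGB or PCDHGC followed by a number were taken, which gave 53 of 20323 genes: 15 alpha, 16 beta and 22 gamma genes. They were measured by RNA sequencing in H2452, an established human cell line of biphasic pleural mesothelioma, labelled as wild type, which stands for 1 tumour. The cells of 4 libraries had been kept for 48 h with 20 nM DPT (deoxypodophyllotoxin, a lignan made by plants, known to keep tubulin from assembling into microtubules), and those of 4 control libraries with its solvent DMSO. The design calls the libraries biological replicates, but the labels name no culture or day, so p-values measure the spread between these libraries.

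As background, each protocadherin carries extracellular cadherin repeats that bind the same isoform on a neighbouring cell, a single membrane span and a cytoplasmic tail. In neurons each cell switches on a few isoforms through promoter choice, which depends on CTCF, cohesin and DNA methylation, and the resulting surface code lets a neurite tell itself from others. Outside the nervous system the genes are best known for methylation of their promoters in tumours. In the alpha and gamma clusters, each gene is 1 long first exon with its own promoter, spliced to exons that all genes of the cluster share, while each beta gene is a single exon.

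In GENCODE release 29 on GRCh38, the build of the table per the submitters' processing notes (hg38), all 53 identifiers were found on the plus strand of chromosome 5. The alpha genes lay between 140786136 and 141012347, the beta genes between 141051135 and 141249365 and the gamma genes between 141330571 and 141512981. The gamma first exons were 2397 to 2597 bases long and were followed by 3 shared exons of 59, 89 and 2033 bases; the alpha genes likewise shared exons of 59, 89 and 2718 bases. In the spliced transcript of PCDHGC3, 46.2% of the bases lay outside its own first exon. A read from a shared exon does not show which gene it came from. The first shared exon of each cluster is printed here, from the GENCODE transcripts, because it was identical in all 15 alpha genes (chr5:140978949-140979007, plus strand) and in all 22 gamma genes (chr5:141494807-141494865, plus strand).
alpha first shared exon: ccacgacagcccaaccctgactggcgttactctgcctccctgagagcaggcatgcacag
gamma first shared exon: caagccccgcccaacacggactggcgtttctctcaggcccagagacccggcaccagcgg

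Of the deposited counts above 0, 78.5% in the gamma cluster and 76.9% in the alpha cluster were not whole numbers (by more than 0.001), against 27.8% in the single-exon beta genes and 14.7% over all genes. Within the gamma cluster the share was 80.4% in the A, 87.5% in the B and 50% in the C genes, which have the same shared exons. The part of shared exons in these shares was not tested. The level of a single alpha or gamma gene is an estimate, since reads from shared exons have to be divided among genes.

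Library totals ran from 14964432 to 17205391 counts. On the first principal component DMSO replicate 3 (40.76) and DPT replicate 2 (29.26) lay far from the other 6 libraries (-25.6 to -1.02), and relative to those 6 the pair's level was lower by a median of -0.32 log2 over the tested protocadherins and -0.01 over all genes. Counts with a term for the pair are given beside those of the 8 libraries, and a gene's value with the term where it changes the call. All 9 mesothelial markers were above 1 CPM on average (counts relative to library size, scaled by TMM, a factor for library composition), with summed levels of 3376 to 4859 CPM in DMSO and 2163 to 3545 in DPT. KRT8 alone made 46.9% of that sum, and the other keratins KRT18, KRT7 and KRT19 most of the rest. CALB2 went from 9.49 ± 2.54 to 14.3 ± 0.967 CPM without overlap and WT1 from 8.17 ± 0.928 to 9.42 ± 1.59 CPM (n = 4 per group). All the other mesothelial markers had lower means in DPT. Outside the keratins these were MSLN (16.28 ± 2.546 and 12.55 ± 1.694 CPM), PDPN (19.5 ± 0.367 and 14.85 ± 2.467) and UPK3B (3.83 ± 0.751 and 1.82 ± 0.515). PDPN and UPK3B did not overlap between groups. Of 10 neuron markers only SYT1 was above 1 CPM as a mean of the 8 libraries, and STMN2 and ELAVL4 were at 0 in each. The neuron markers summed to 4.96 to 6.26 CPM in DMSO and 5.63 to 9.97 in DPT, and among them SYP was at 0.462 ± 0.223 and 1.196 ± 0.222 CPM without overlap. The summed fibroblast markers lay at 392.8 to 480.9 CPM in DMSO and 136.4 to 232.1 in DPT, with COL1A2 making 75.8% of the sum and the defining markers DCN and LUM at 0. Leukocyte markers summed to 84.1 to 104.2 CPM in DMSO and 89.0 to 129.5 in DPT, of which CD68 made 99.0%, and endothelial markers to 1.46 to 5.076 and 3.596 to 9.447 CPM. The part of these marker shifts in the results was not tested.

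H2452 cells carried mainly gamma protocadherin messages, and most of those came from 3 genes. Levels are compared between genes as FPKM, fragments per kilobase and per sequencing depth, as deposited. PCDHGC3, a C-type gamma isoform that is expressed widely outside neurons, measured 54.9 ± 5.26 FPKM in DMSO and 49.2 ± 3.61 in DPT (mean ± SD, n = 4 per group). PCDHGA12 followed with 22.7 ± 0.623 and 20.3 ± 1.56 FPKM, and PCDHGB5 with 13.20 ± 1.502 and 10.1 ± 0.788 FPKM. These 3 genes together made 84.7% of the summed gamma FPKM, averaged over the 8 libraries. The gamma A genes PCDHGA7 and PCDHGA9 reached 4.199 ± 0.1986 and 2.70 ± 0.585 FPKM in DMSO, and the gamma B genes PCDHGB4 and PCDHGB2 2.60 ± 0.362 and 1.87 ± 0.588 FPKM.

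Within the gamma cluster the proportions differed little. PCDHGC3 took 50.39% ± 4.202 of the summed FPKM in DMSO and 53.3% ± 2.90 in DPT, and PCDHGA12 20.8% ± 0.690 and 21.9% ± 0.892, with overlapping libraries. The share of PCDHGA9 was 2.69%, 2.06%, 1.99% and 3.16% in DMSO replicates 1 to 4 and 1.4%, 1.33%, 1.79% and 1.62% in DPT replicates 1 to 4. Its shares in DPT were below all those in DMSO, as were those of PCDHGA4 (0.583% ± 0.102 in DMSO and 0.324% ± 0.0846 in DPT).

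The alpha and beta genes were measured at lower levels. The highest beta gene was PCDHB14 with 1.28 ± 0.395 FPKM in DMSO, followed by PCDHB13 with 0.896 ± 0.188 and PCDHB2 with 0.681 ± 0.445, and the highest alpha gene was PCDHAC2, a C-type isoform, with 0.675 ± 0.212 FPKM in DMSO and 0.940 ± 0.434 in DPT. PCDHA4, PCDHA7, PCDHA8, PCDHB1 and PCDHB6 had no counts in any library, where a count of 0 allows up to 3 counts, or 0.20 CPM in the smallest library (counting error only).

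**Figure D1:**
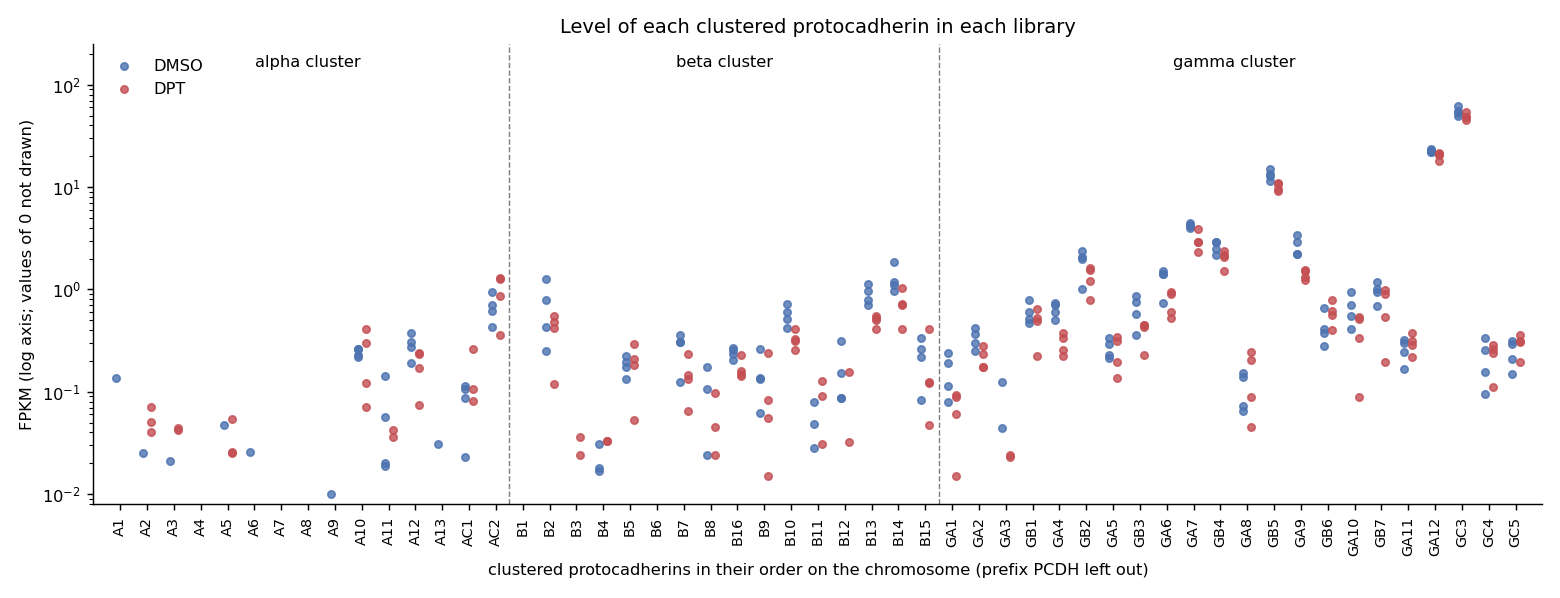
FPKM (log axis) of the 53 clustered protocadherins in their order on the chromosome, each point 1 library, 4 DMSO and 4 DPT, with values of 0 not drawn. PCDHGC3 and PCDHGA12 near the end of the gamma cluster and PCDHGB5 further inside it stand at 9.18 FPKM or more in every library. Most alpha genes have few or no points.

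Summed over its genes, the gamma cluster had lower values in DPT in every library. The sums were 458.6, 456.8, 464.7 and 484.2 CPM in DMSO replicates 1 to 4 and 389.3, 389.0, 347.9 and 361.5 CPM in DPT replicates 1 to 4, a log2 ratio of means of -0.33. In DPT replicate 2 and DMSO replicate 3, the libraries that stood apart, the gamma sum was close to the others of their group. As summed FPKM the groups were 108.9 ± 1.56 in DMSO and 92.2 ± 3.58 in DPT (n = 4 each), also without overlap, at a log2 ratio of -0.24. Of the gamma subfamilies, the A genes summed to 151.4 ± 10.0 and 119.0 ± 8.21 CPM without overlap, while the B genes (92.2 ± 14.6 and 66.0 ± 8.07 CPM) and the C genes (222.5 ± 16.8 and 186.9 ± 17.5 CPM) overlapped between groups. Sums over chosen genes were given no test. In bulk RNA, fewer cells with a message and less of it per cell cannot be told apart.

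The beta sum was also lower in each DPT library, with the larger log2 ratio of -0.74. It was 19.4, 17.4, 14.1 and 19.1 CPM in DMSO replicates 1 to 4 and 11.3, 7.55, 11.6 and 11.4 CPM in DPT replicates 1 to 4. The lowest library of each group was the one that stood apart, and in the other 6 libraries the log2 ratio was -0.70. The alpha sum did not separate the groups, at 10.2, 7.86, 6.25 and 8.24 CPM in DMSO and 9.91, 4.32, 9.87 and 9.19 CPM in DPT; its log2 ratio of 0.03 ranged from -0.08 to 0.25 when single libraries were left out.

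**Figure D2:**
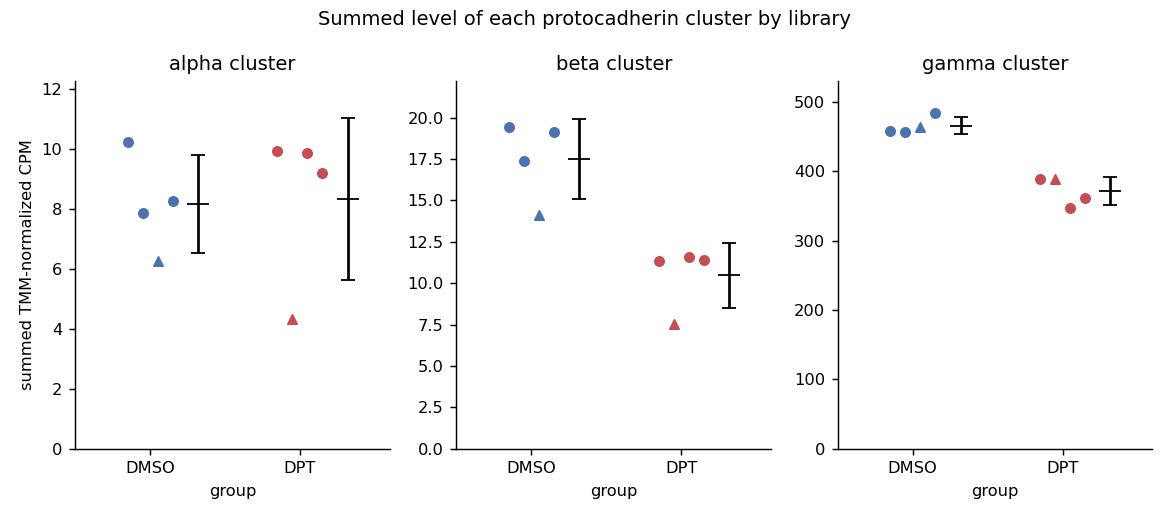
Summed TMM-normalized CPM (y axis from 0) of the alpha, beta and gamma clusters in the 4 DMSO and 4 DPT libraries, with mean and SD in black and triangles for DMSO replicate 3 and DPT replicate 2. The beta and gamma sums of all DPT libraries lie below those of all DMSO libraries, and the alpha sums overlap.

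Single genes were tested with edgeR's quasi-likelihood test over all 12648 genes that passed its filter on low counts, with Benjamini-Hochberg adjustment, and called at an adjusted p under 0.05. Of the 53 protocadherins 30 were tested: 3 alpha, 7 beta and 20 gamma genes. The 23 others had mean levels of at most 0.183 FPKM and at most 17 counts in a library. The filter asks for 0.62 CPM in 4 libraries, and 8 of the 30 reached this in all DMSO but not all DPT libraries and 1 the reverse, so the members that passed lean towards genes higher in DMSO. With no filter, 35 of 48 genes with any count had a negative log2 fold change and 13 a positive one.

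In the 8 libraries 5 protocadherins fell and 0 rose: PCDHGA9, PCDHGA4, PCDHGB5, PCDHB13 and PCDHB14. That is 16.7% of the 30, where 5.29% of all tested genes were called lower and 5.68% higher. Higher calls were 0 with limma and DESeq2 too, and at an unadjusted p under 0.05 edgeR had 0 higher and 13 lower, where 13.5% and 13.0% of all genes passed. The median log2 fold change of the 30 was -0.49, against 0 over all tested genes, and 23 were negative. With the term for the pair 15 fell (50%, where 17.0% of all genes were called lower and 16.9% higher) and again 0 rose; the 5 genes were among the 15, at adjusted p of 3.48e-05 to 0.00503. In the other 6 libraries alone 14 fell (17.1% of all genes). In 7 of the 30 all DPT values were below all DMSO values, and in 0 above, where 8.73% and 9.50% of all genes did so. Without DMSO replicate 3 the number below was 14, where 15.8% of all genes did so.

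The calls can be set beside genes of like abundance. Among genes with a mean of 2 to 10 CPM, 4 of 10 protocadherins fell, against 2.91% of the 2333 genes tested at that level. With the term for the pair 7 of these 10 fell, against 9.94% of the genes. Under 2 CPM none of 15 was called, against 1.34% of 1197 genes called lower, and 3 fell with the term (4.51% of genes). At that level the median SE of a log2 fold change was 0.38 in the protocadherins and 0.37 in all genes. Over 10 CPM 1 of 5 fell, against 6.42% of 9118 genes, and 5 fell with the term (20.5% of genes).

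PCDHGA9 (ENSG00000261934, chromosome 5, 141402932 to 141512979) encodes a gamma A isoform. It measured 14.04, 10.9, 10.6 and 16.8 CPM in DMSO replicates 1 to 4 and 6.27, 5.91, 7.32 and 6.24 CPM in DPT replicates 1 to 4. All DPT libraries lay well below all DMSO libraries, and the gene fell by 1.02 on the log2 scale (SE 0.167, adjusted p = 0.00617), a 2.03-fold fall. It was the only one of the 5 called in each of the 8 fits that left out 1 library.

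PCDHGA4 (ENSG00000262576, 141355025 to 141512979), another gamma A isoform, had the largest fall of the tested members in the 8 libraries; in the 6 libraries without the pair PCDHA12 had the larger log2 fold change (-1.33 against -1.24). Its levels were 3.44, 2.41, 2.89 and 3.17 CPM in DMSO replicates 1 to 4 and 1.39, 0.599, 1.75 and 0.674 CPM in DPT replicates 1 to 4. The groups did not overlap, and DPT replicates 2 and 4 were lowest. It fell by 1.43 log2 (SE 0.341, adjusted p = 0.0276). Leaving out DMSO replicate 1, 2 or 4, or DPT replicate 4, ended the call (adjusted p 0.0525 to 0.0839).

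The deposited values also show the transcript length behind each value of PCDHGA4. Dividing count by FPKM returns the length used for scaling, and GENCODE has a spliced PCDHGA4 transcript of 4778 bases and an unspliced one, which ends beyond the first exon and lacks the shared exons, of 2691 bases. The implied length was 4779, 4778, 4774 and 4250 bases in DMSO replicates 1 to 4 and 4158, 2690, 4779 and 2692 bases in DPT replicates 1 to 4. The 2 libraries with the lowest counts were thus the 2 whose implied length was that of the unspliced form. For PCDHGA9 the length was 4775 to 4778 bases in 7 libraries and 4209 in DPT replicate 4, and for PCDHGB5 it lay between 3958 and 4755 bases. PCDHGB1, with a log2 fold change of -0.02 (adjusted p = 0.967), had 2590 to 2594 bases in the 4 DMSO libraries and DPT replicate 1, beside 2592 bases for its unspliced transcript, and 4750, 3401 and 3480 bases in DPT replicates 2 to 4. Whether the division of shared reads contributed to any difference was not tested.

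PCDHGB5 (ENSG00000276547, 141397987 to 141512979) was the most abundant of the 5. It measured 57.9, 64.1, 49.7 and 71.9 CPM in DMSO replicates 1 to 4 and 50.9, 39.8, 37.6 and 44.2 CPM in DPT replicates 1 to 4. DPT replicate 1 was above DMSO replicate 3, so the groups overlapped by these libraries. It fell by 0.50 log2 (SE 0.129, adjusted p = 0.037), a call that ended when any of 5 libraries, DMSO 1, 2 and 4 and DPT 3 and 4, was left out (0.0808 to 0.11).

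The beta genes PCDHB13 and PCDHB14 lie outside the shared exons of the alpha and gamma clusters. GENCODE places another gene of the same strand across the exon of PCDHB14, whose implied length ran from 2894 to 4422 bases, and none across PCDHB13. PCDHB13 (ENSG00000187372, 141213919 to 141218979) measured 5.79, 4.95, 3.55 and 4.13 CPM in DMSO replicates 1 to 4 and 2.75, 2.07, 2.51 and 2.63 CPM in DPT replicates 1 to 4. It fell by 0.88 log2 (SE 0.199, adjusted p = 0.0224), and its groups did not overlap. PCDHB14 (ENSG00000120327, 141222932 to 141227759) measured 4.01, 4.34, 3.68 and 6.14 CPM in DMSO and 3.06, 2.04, 1.79 and 2.82 CPM in DPT, again without overlap, and fell by 0.90 log2 (SE 0.242, adjusted p = 0.0428). The call of PCDHB13 ended on leaving out any of the same 5 libraries (0.0506 to 0.0737), and that of PCDHB14 without any library but DMSO replicate 3 (0.0528 to 0.119).

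**Figure D3:**
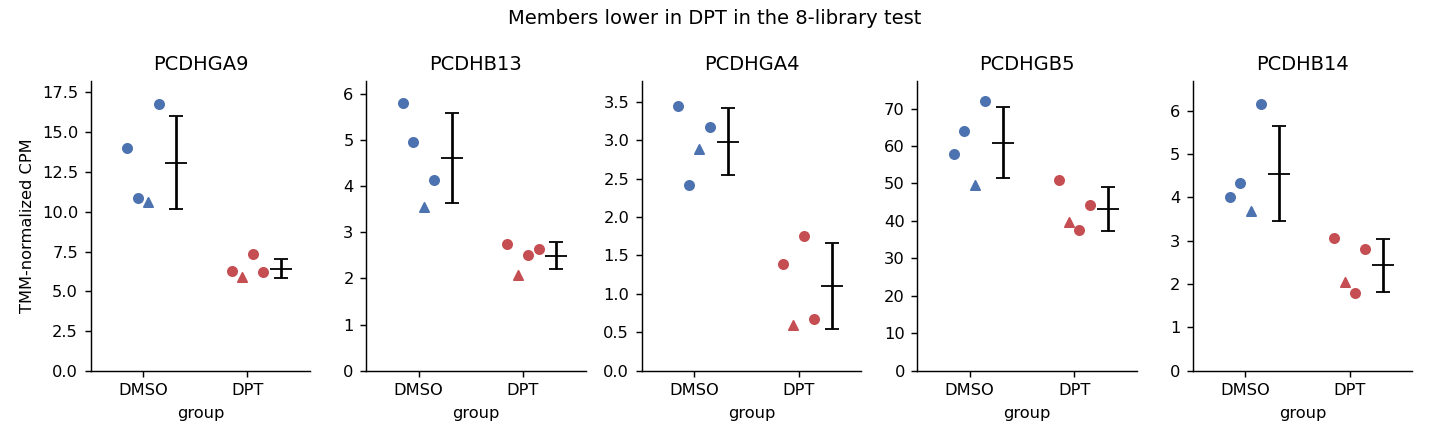
TMM-normalized CPM (y axes from 0, scaled per gene) of the 5 protocadherins that fell in the 8-library test, each point 1 library, with mean and SD in black and triangles for DMSO replicate 3 and DPT replicate 2. The groups are apart for PCDHGA9, PCDHB13, PCDHGA4 and PCDHB14 and overlap for PCDHGB5, where DPT replicate 1 (50.9 CPM) lies above DMSO replicate 3 (49.7 CPM).

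Before these genes' RefSeq start sites stood a short element shared by the called gamma genes and another shared by the called beta genes. They are shown because promoter choice sets which isoform is made. Known conserved elements of protocadherin promoters carry the letters CGCT. The windows are the 250 bases before the most upstream RefSeq start (GRCh38.p14, plus strand), at chr5:141402528-141402777 for PCDHGA9, chr5:141354771-141355020 for PCDHGA4, chr5:141397697-141397946 for PCDHGB5 and chr5:141213669-141213918 for PCDHB13. Capitals mark ACTCTGNGNGNCGCTGT in the gamma genes and TGGCGCTNCAGGATAA in the beta gene. These 2 patterns were chosen after reading the windows, as the letters common to the called gamma genes and to PCDHB13 and PCDHB14, with N where they differ.
PCDHGA9: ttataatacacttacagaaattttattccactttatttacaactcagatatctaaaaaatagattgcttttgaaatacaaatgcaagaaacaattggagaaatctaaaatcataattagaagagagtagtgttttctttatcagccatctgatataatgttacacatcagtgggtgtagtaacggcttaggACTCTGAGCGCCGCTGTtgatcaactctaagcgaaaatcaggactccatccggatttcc
PCDHGA4: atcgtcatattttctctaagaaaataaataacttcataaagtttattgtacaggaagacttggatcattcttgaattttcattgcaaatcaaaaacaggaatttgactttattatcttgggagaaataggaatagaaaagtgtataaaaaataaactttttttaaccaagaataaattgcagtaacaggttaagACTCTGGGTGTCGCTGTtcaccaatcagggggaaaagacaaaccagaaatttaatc
PCDHGB5: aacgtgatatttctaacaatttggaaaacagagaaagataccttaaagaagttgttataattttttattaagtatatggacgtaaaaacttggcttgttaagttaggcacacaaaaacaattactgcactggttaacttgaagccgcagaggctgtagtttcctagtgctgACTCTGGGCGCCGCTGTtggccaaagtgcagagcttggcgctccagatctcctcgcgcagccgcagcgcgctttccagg
PCDHB13: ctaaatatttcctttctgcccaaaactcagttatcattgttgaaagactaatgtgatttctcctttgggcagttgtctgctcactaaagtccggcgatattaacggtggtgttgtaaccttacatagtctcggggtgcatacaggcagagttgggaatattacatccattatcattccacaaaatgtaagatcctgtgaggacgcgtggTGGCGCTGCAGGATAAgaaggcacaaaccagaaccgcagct

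The marked letters began 59, 56, 79 and 41 bases before the start in PCDHGA9, PCDHGA4, PCDHGB5 and PCDHB13. In PCDHB14 the letters TGGCGCTACAGGATAA began 67 bases before the RefSeq start. They lie inside the exon of that gene as GENCODE places it, from 141222932. Of the 53 genes 47 had a window in the table. Searched on both strands, CGCT stood in 45 of them (95.7%) and in 64.2% of the 27326 windows of all genes, and the longer CGCTGT in 25 (53.2%) and in 8.88%. ACTCTGNGNGNCGCTGT, which contains both, stood in 7 of 20 gamma windows and in no other of the 27326 (0.0256% in all). These were PCDHGA4, PCDHGA5, PCDHGB4, PCDHGB5, PCDHGA9, PCDHGA10 and PCDHGC3. Their log2 fold changes ran from -1.43 for PCDHGA4 to 0.05 for PCDHGA5, so that genes with the element differed among themselves. TGGCGCTNCAGGATAA, which contains CGCT, stood in 3 of 14 beta windows, those of PCDHB12, PCDHB13 and PCDHB14, and in no other (0.011% in all). The called genes match because both patterns were drawn from their windows, so these shares are no test of the called genes. A match is a likeness of letters only.

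PCDHGC3 and PCDHGA12, the most abundant gamma genes, moved by small amounts that the 8 libraries did not call. PCDHGC3 measured 216.0, 212.8, 246.1 and 209.6 CPM in DMSO replicates 1 to 4 and 184.8, 210.2, 169.4 and 176.2 CPM in DPT replicates 1 to 4. The libraries that stood apart were the highest of their groups, and DPT replicate 2 overlapped the DMSO range. The log2 fold change was -0.26 (SE 0.085, adjusted p = 0.0849), and with the term for the pair the gene fell by 0.26 log2 (adjusted p = 0.000184). PCDHGA12 had 95.8, 99.4, 101.7 and 110.2 CPM in DMSO and 93.9, 95.5, 79.9 and 87.2 CPM in DPT, apart by less than 1 CPM, with a log2 fold change of -0.19 (adjusted p = 0.141; 0.0194 with the term).

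Other gamma genes reached the threshold only with the term. PCDHGA7 had 17.7 to 19.5 CPM in the DMSO libraries and 9.42 to 16.9 in the DPT libraries without overlap (log2 fold change -0.56, adjusted p = 0.0524; 0.00417 with the term). PCDHGA6 (-0.81, adjusted p = 0.0879; 0.00451), PCDHGB2 (-0.78, 0.139; 0.000696), PCDHGB4 (-0.40, 0.145; 0.00729) and PCDHGA10 (-0.91, 0.245; 0.0157) behaved likewise. In PCDHGB2 the DMSO libraries were at 9.98, 10.0, 4.16 and 9.71 CPM, the low value being DMSO replicate 3, and the DPT libraries at 4.52, 3.03, 5.78 and 6.18 CPM.

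Gamma genes that passed neither test were PCDHGB7 (-0.69), PCDHGA2 (-0.62), PCDHGB3 (-0.59), PCDHGB1, PCDHGA5 (0.05), PCDHGA11 (0.08), PCDHGC4 (0.12), PCDHGA8 (0.32), PCDHGB6 (0.41) and PCDHGC5 (0.45), values being log2 fold changes in the 8 libraries. PCDHGB7 varied most within DPT, at 1.88, 0.539, 3.84 and 4.69 CPM in replicates 1 to 4 against 3.30 to 4.95 CPM in DMSO. The C-type genes PCDHGC4 and PCDHGC5, which neurons express, stayed under 1.5 CPM in all libraries. The first exon of PCDHGB4 overlaps the annotated PCDHGA8 gene, so reads of these genes may not be separated.

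All 7 tested beta genes had negative log2 fold changes, from -0.95 for PCDHB7 to -0.21 for PCDHB2. PCDHB10 measured 1.39 to 2.43 CPM in DMSO and 0.839 to 1.32 CPM in DPT without overlap (-0.83, adjusted p = 0.0745; 0.0287 with the term), and PCDHB7 0.467 to 1.38 and 0.240 to 0.857 CPM (-0.95, adjusted p = 0.208; 0.0484 with the term). PCDHB16 (-0.48), PCDHB15 (-0.45) and PCDHB2 passed neither test. PCDHB2 had 2.57, 2.17, 0.934 and 1.45 CPM in DMSO and 1.59, 0.479, 2.21 and 1.84 CPM in DPT, lowest in the libraries that stood apart. GENCODE places genes on the opposite strand across exons of several beta genes, among them PCDHB2, PCDHB7 and PCDHB10.

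Of the alpha genes PCDHAC2 had 5.50, 4.09, 2.49 and 3.63 CPM in DMSO replicates 1 to 4 and 7.11, 2.04, 7.23 and 4.84 CPM in DPT replicates 1 to 4 (log2 fold change 0.44, adjusted p = 0.513). The lowest library of each group was again DMSO replicate 3 or DPT replicate 2. PCDHA12 had 2.06, 1.68, 1.03 and 1.53 CPM in DMSO and 1.17, 0.903, 0.292 and 0.613 CPM in DPT (-1.07, adjusted p = 0.115), and fell with the term (adjusted p = 0.0406). PCDHA10, at 1.89, 1.19, 2.01 and 1.87 CPM in DMSO and 0.683, 0.823, 1.70 and 2.14 CPM in DPT, overlapped between groups and passed neither test (-0.38, adjusted p = 0.569).

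**Figure D4:**
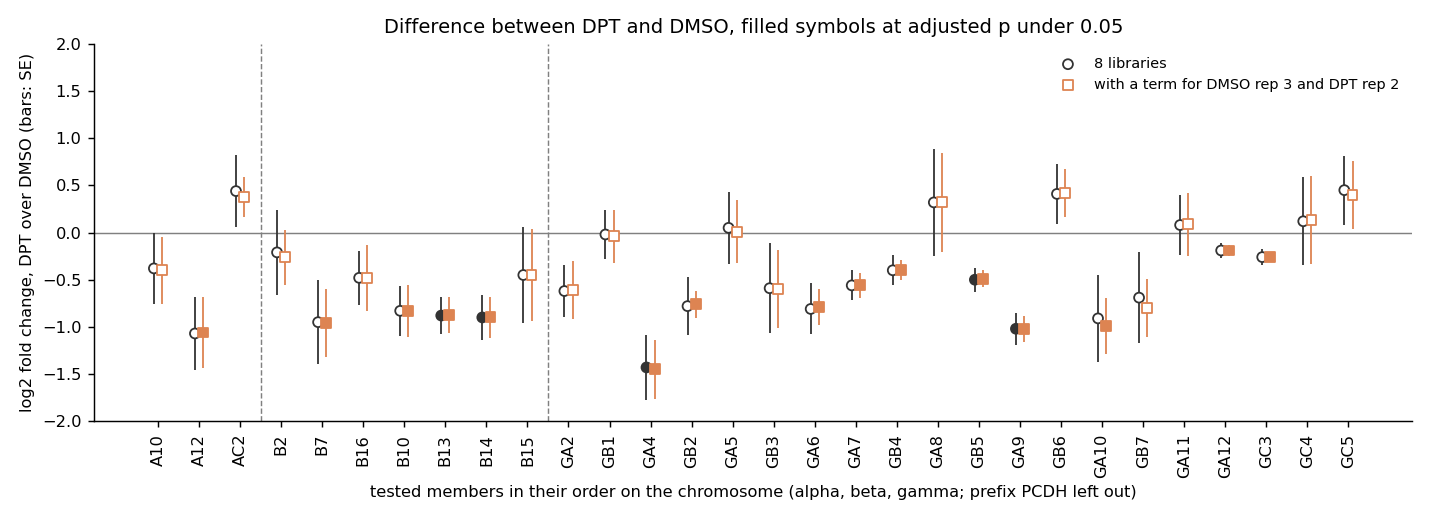
Log2 fold change (DPT over DMSO) with its standard error for the 30 tested protocadherins in chromosome order, as circles for the 8-library fit and squares for the fit with a term for DMSO replicate 3 and DPT replicate 2, filled at an adjusted p under 0.05. The 5 filled circles and 15 filled squares all lie below 0.

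Genes known to act on protocadherin promoter choice were read from 2 lists, against the 5.29% of all genes called lower and 5.68% called higher. Of 11 tested genes of CTCF and the cohesin ring, which loop enhancers to protocadherin promoters, 0 rose and 0 fell in the 8 libraries, and SMC1A fell with the term for the pair (-0.16 log2, adjusted p = 0.0085); the list's median was 0.02. CTCF itself measured 72.3 ± 9.23 CPM in DMSO and 73.0 ± 4.24 in DPT (n = 4 per group, adjusted p = 0.944). Among 14 tested genes of DNA methylation and silencing 1 rose and 0 fell, with a median of -0.02; with the term 2 rose and 3 fell, where 16.9% and 17.0% of all genes did. Counts this small are read no further. The one that rose in the 8 libraries was ZNF274, a zinc finger protein that brings the histone methyltransferase SETDB1 to DNA, from 19.6 ± 1.03 to 26.6 ± 1.72 CPM (log2 fold change 0.44, adjusted p = 0.00894). The methyltransferases DNMT1 (-0.03, adjusted p = 0.824), DNMT3A (-0.41, 0.0681; 0.00314 with the term) and DNMT3B (0.27, 0.432) and the chromatin protein SMCHD1 (-0.07, 0.808) were not called in the 8 libraries.

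Related cadherins outside the clusters had no higher calls in the 8 libraries or with the term. Of all genes 5.68% and 16.9% were called higher in these fits, and 5.29% and 17.0% lower. Counts among so few genes are read no further. Of 6 tested non-clustered protocadherins 0 were called, with a median of 0.31, and PCDH1 fell with the term for the pair (-0.20 log2, adjusted p = 0.00781). Of 5 tested FAT and dachsous cadherins, very large cadherins of planar polarity and growth control, FAT4 fell from 17.0 ± 5.78 to 7.94 ± 1.31 CPM (-1.10 log2, adjusted p = 0.0147). FAT3 had -1.14 (adjusted p = 0.0538) and FAT1 -0.46 (adjusted p = 0.139), and both fell with the term (4.36e-07 and 2.44e-07). The remaining tested genes of this list, FAT2 (0.08, adjusted p = 0.926) and DCHS1 (0.68, adjusted p = 0.221), had positive log2 fold changes in the 8 libraries. Neither was called there or with the term (0.861 and 0.127). In the 6 libraries without the pair DCHS1 was called higher (adjusted p = 0.0178).

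Among 20 tested rows of intracellular partners and sheddases 4 fell and 0 rose, with a median of -0.10, where 5.29% of all genes were called lower. With the term 4 fell and 1 rose, beside 17.0% and 16.9% of all genes. ADAM10, the protease that sheds protocadherin ectodomains, fell from 409.9 ± 10.9 to 319.8 ± 9.14 CPM (-0.36 log2, adjusted p = 0.0049), and NCSTN, the nicastrin subunit of the gamma-secretase that then cuts the membrane stub, from 155.4 ± 12.6 to 108.1 ± 4.11 CPM (-0.52 log2, adjusted p = 0.00281). PTK2B, a focal adhesion kinase relative that protocadherin tails inhibit, fell by 0.71 log2 (adjusted p = 0.0263), and the WAVE complex member ABI2 by 0.26 log2 (adjusted p = 0.0442). The calls of PTK2B and ABI2 each ended on leaving out any 1 library other than DMSO replicate 3 or DPT replicate 2 (0.0583 to 0.0832 and 0.102 to 0.132), and that of ABI2 also with limma (0.0502) and with no filter (0.054). PTK2, the kinase relative of PTK2B, was not called.

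Of 17 tested genes in and beside the locus 1 rose and 0 fell, with a median of 0.08, a share near the 5.68% of all genes called higher. With the term 5 rose and 1 fell, where 16.9% and 17.0% of all genes did. TAF7, a general transcription factor gene on the opposite strand between the beta and gamma clusters, measured 141.3 ± 8.37 CPM in DMSO and 158.6 ± 10.53 in DPT (0.17 log2, adjusted p = 0.168) and rose with the term (adjusted p = 0.0106). SLC25A2, beside it, had no counts. DIAPH1, which lies 2.0 kb beyond the gamma cluster, was not called. HBEGF, a growth factor gene 439.5 kb before the alpha cluster, rose by 1.31 log2 (adjusted p = 0.000159).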

How the data were processed

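RNA sequencing libraries of H2452 cells were compared, 4 with DPT and 4 with DMSO. The deposited table gave expected counts and FPKM per gene, per the file headers; the authors computed both. The build was hg38 and the tools were RSEM, DESeq2, HISAT2, fastp 0.18.0 and StringTie 1.3.1, per the submitters' processing notes; their settings, strand use and annotation: not given in the sources used here. Expected counts were rounded and tested in edgeR 4.0.16 (R 4.3.3; filterByExpr minimum count 10 and total 15, TMM, quasi-likelihood test, treatment as the only term; adjusted p by Benjamini-Hochberg). CPM values used unrounded counts. Alternatives were DESeq2 1.42.0, limma 3.58.1 voom, other scaling, no filter, a replicate block, a term for the pair that stood apart, and leaving libraries out. The test was checked on simulated data. Every tested protocadherin is named; from other lists, up to 3 called genes per direction and a few fixed ones. The members and lists were chosen with earlier results of these data known. ABI2, SMC1A, PCDH1, FAT1, FAT2, FAT3, DCHS1, PTK2 and DIAPH1 were named outside that rule, after their values were seen. Sequences are from RefSeq (GRCh38.p14) and GENCODE 29.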

Additional observations from a re-analysis of the deposited data

Results flagged for a closer look

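Among 60 groups of 4 libraries (30 tested protocadherins in DMSO and in DPT), 2 held a library far from the other 3 by Dixon's criterion, which chance gives in about 1 in 20 groups. Both were DMSO replicate 3, a library that stood apart over all genes. PCDHGB2 measured 4.16 CPM there and 9.71 to 10.0 CPM in the other DMSO libraries, and PCDHGA6 3.92 CPM against 7.33 to 7.78 CPM.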

How the results depend on the processing

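In the 8 libraries 5 protocadherins were called lower, beside 5.29% of all genes. With the term for DMSO replicate 3 and DPT replicate 2 the number was 15, beside 17.0% of all genes. In the other 6 libraries it was 14, beside 17.1%. It was 8 with DESeq2 and 1 to 8 when 1 library was left out. With limma, other size factors and no filter it stayed within 1.5 times the main count. Where no share of all genes is given beside a count, the count is read no further. The number called higher was 0 in every fit listed. Groups did not overlap in 7 protocadherins, in 15 without both libraries of the pair (22.8% of all genes) and in 8 to 14 without 1 library. The summed gamma level had a log2 ratio of -0.33 as CPM and -0.24 as FPKM. Over the other gene lists, whose tested numbers are given above, 5 genes were called lower, beside 5.29% of all genes. The number was 13 with the term (beside 17.0%), 15 in the 6 libraries (beside 17.1%) and 3 to 8 without 1 library. Called higher were 2, beside 5.68% of all genes, and 8 with the term, beside 16.9%. The number higher was 5 with DESeq2, 11 in the 6 libraries and 2 to 7 without 1 library. The cause of these changes was not tested, and the fits that left libraries out also had fewer of them. Replicate numbers did not pair the libraries: same-numbered deviations correlated at 0.20, -0.31, -0.40 and 0.21, and DMSO replicate 3 went best with DPT replicate 2 (0.68). A replicate block left 1 protocadherin called lower, and 2 lower and 1 higher in the other lists. The median SE of a log2 fold change was 0.38 in protocadherins under 2 CPM and 0.37 in all genes at that level. At 2 to 10 CPM it was 0.31 and 0.20. The part of depth in these values was not tested.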
